A study of Vitis vinifera with 2 samples.

Results

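The predicted grapevine miRNA novel_mir_175, called novel_mir_30 in the article, is 1 of the 299 entries in the table of predicted miRNAs and was taken by its name in that table. Entries are called here by their names in the table and not by the numbers of the article, and the article name of each other entry is given once. The sequence of novel_mir_175 carries most of the known miR166, and its reads were compared between 2 small RNA libraries of micropropagated ‘Muscat Hamburg’ (*Vitis vinifera*) plantlets aged 6 weeks. The CT (cold-treated) library came from plantlets kept for 4 h in the cold at 4°C, and the NCT (non-cold-treated) library from plantlets harvested at 0 h and grown at 26°C by the labels and methods, a temperature that the article's results put slightly lower. Each library was made from 3 pooled plantlets, and the cultivar, the age and the growth medium were the same in both. The CT plantlets were moved to a second growth chamber for the cold, so the move and the chamber cannot be told apart from the temperature. The same holds for the 4 h that passed, since no library came from plantlets kept at 26°C for 4 h. The labels give the tissue as leaf, and the methods give the shoot apex with a well developed leaf, so the RNA mixes several cell types. Fewer cells that make a miRNA and less of the miRNA per cell cannot be told apart in such RNA. With 1 library per condition, no difference between CT and NCT has a replicate check, and a test on the reads compares these libraries and not the temperatures.

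Plant miRNAs are cut by a Dicer-like enzyme from the stem of a hairpin precursor as a duplex of the mature strand and the opposite (star) strand. The miR166 family is among the most conserved in land plants. In *Arabidopsis* it directs the cleavage of mRNAs of the class III homeodomain-leucine zipper (HD-ZIP III) transcription factors, which set the upper side of the leaf and act in the shoot meristem and the vascular tissue. In miR166 hairpins the mature strand lies on the 3′ arm. Where the first base of a miRNA lies sets its seed (bases 2 to 8) and the place at which a paired target is cut.

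The hairpin of novel_mir_175 has 161 nt and is an intergenic locus on the sense strand of the PN40024 genome (12X), chromosome 7, at chr7:19450174-19450334. The mature miRNA, at chr7:19450304-19450324, takes positions 131 to 151 of the hairpin. The 5′ arm product listed for the hairpin takes positions 13 to 34. The whole hairpin is shown because it holds other miR166 sequences besides novel_mir_175, whose 21 nt are in capitals.
hairpin of novel_mir_175: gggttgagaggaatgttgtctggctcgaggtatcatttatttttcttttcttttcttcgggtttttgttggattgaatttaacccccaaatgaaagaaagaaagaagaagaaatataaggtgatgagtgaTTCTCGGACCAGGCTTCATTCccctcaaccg
5′ arm product: atgttgtctggctcgaggtatc

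The mature sequence was set beside the 8 known members, vvi-miR166a to vvi-miR166h, which are shown with their seeds in capitals. The members c to h share a single sequence.
novel_mir_175: tTCTCGGAccaggcttcattc
vvi-miR166a: tCTCGGACcaggcttcattcc
vvi-miR166b: tCGGACCAggcttcattcctc
vvi-miR166c to vvi-miR166h: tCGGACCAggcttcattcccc

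novel_mir_175 matched vvi-miR166a over 20 nt with 0 mismatches, its first base lying 1 nt upstream. It matched each of vvi-miR166b to vvi-miR166h over 18 nt with 0 mismatches, its first base lying 3 nt upstream. The shift gave it another seed. None of the 162 known mature sequences compared and none of the other 298 entries had the seed of novel_mir_175 (0 of 162 and 0 of 298). All 8 known sequences that shared 16 nt or more with it were miR166 members, and the longest run shared with any other known miRNA was 7 nt. Among the other 298 entries, 0 shared 16 nt or more with novel_mir_175 or with a known miR166, and the longest such run was 8 nt. It was therefore the only miR166-like entry of the table by this limit. Sequences matched to known miRNAs were set aside before the prediction, which by itself leaves few such entries to find.

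The hairpin holds the complete 21 nt of vvi-miR166a at positions 132 to 152 and the complete 21 nt of vvi-miR166c to vvi-miR166h at positions 134 to 154. In all, 7 of the 8 known members, as 2 distinct sequences, can be read from this hairpin without a mismatch. vvi-miR166b cannot. Reads of those sequences were assigned to known miRNAs before the prediction, and how many came from this hairpin was not measured. The 1156 CT and 1910 NCT reads listed for novel_mir_175 therefore count 1 sequence of the hairpin, not its whole output. Of the 65 predicted hairpins whose sequence was used, 4 hold a complete known mature miRNA, and novel_mir_175 is the only one of them with a miR166. The RefSeq gene table of a later assembly (ASM3070453v1) names 8 MIR166 genes, A to H, and does not hold the name novel_mir_175. That name was given by the depositors, so its absence carries no information. The hairpin was not compared with these genes by sequence or place, so whether it is among them was not examined.

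The stretch around the mature strand is shown for novel_mir_175 and the 8 known hairpins, aligned on the miR166 sequence, to show where the 21 nt of novel_mir_175 can be told from the known family. The windows start 4 nt before novel_mir_175 and end 9 nt after it. Capitals mark bases that differ from the hairpin of novel_mir_175.
novel_mir_175: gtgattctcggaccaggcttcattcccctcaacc
vvi-MIR166a: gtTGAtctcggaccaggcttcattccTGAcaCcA
vvi-MIR166b: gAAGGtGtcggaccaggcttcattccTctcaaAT
vvi-MIR166c: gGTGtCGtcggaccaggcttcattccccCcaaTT
vvi-MIR166d: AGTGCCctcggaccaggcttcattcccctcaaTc
vvi-MIR166e: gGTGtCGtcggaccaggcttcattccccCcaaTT
vvi-MIR166f: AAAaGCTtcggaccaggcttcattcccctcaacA
vvi-MIR166g: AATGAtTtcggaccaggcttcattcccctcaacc
vvi-MIR166h: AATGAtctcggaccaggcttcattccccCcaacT

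The last 18 nt of novel_mir_175 occurred in all 8 known MIR166 hairpins, and every difference fell in its first 3 bases. The last 19 nt occurred in 3 of the 103 known hairpins compared (vvi-MIR166a, d and h), the last 20 nt in 2 (vvi-MIR166a and h) and all 21 nt in 0. The differences are given as the known hairpin's base, the position from the 5′ end of novel_mir_175 and its own base. vvi-MIR166a and vvi-MIR166h differed from it only by A1T. vvi-MIR166d differed by C1T and C2T, and vvi-MIR166c and e by C2T and G3C. vvi-MIR166b differed by G1T and G3C, vvi-MIR166g by A1T and T3C, and vvi-MIR166f at all 3 positions, by G1T, C2T and T3C. The first base alone thus separates reads of novel_mir_175 from a read that starts at the same place in vvi-MIR166a or vvi-MIR166h. By the article's methods, a sequence with up to 2 mismatches was still taken as a known miRNA. Why novel_mir_175 was listed as predicted was not examined. Among the 65 predicted hairpins, the 21 nt were found in 1, its own.

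**Figure D1:**
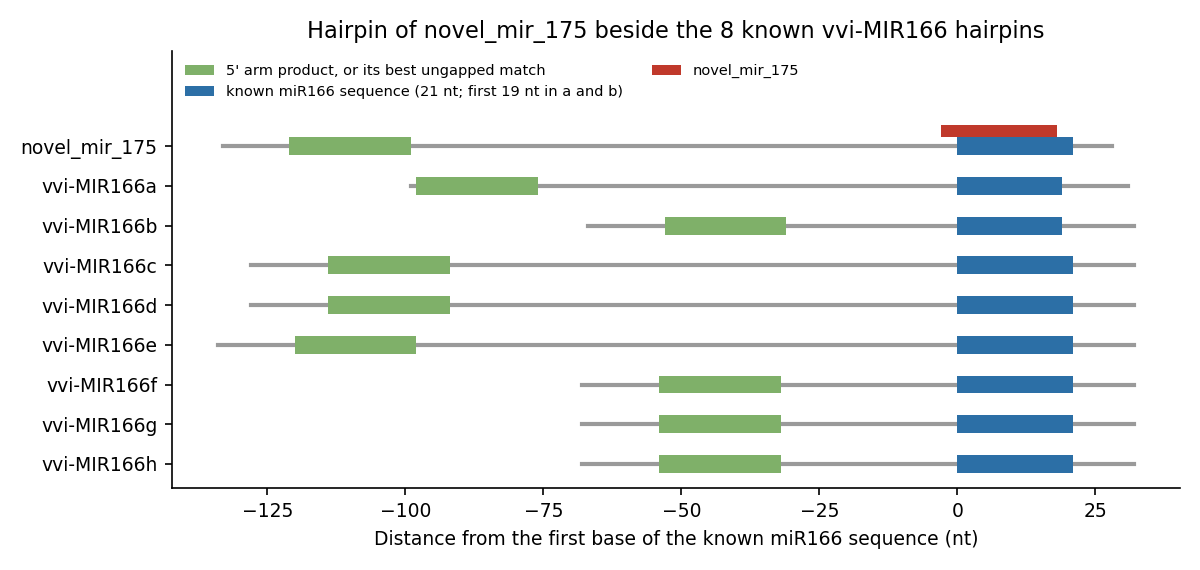
Hairpins of novel_mir_175 (top) and of vvi-MIR166a to h drawn to scale, with the distance in nt from the first base of the known miR166 sequence on the x axis. Blue bars are the miR166 sequence, green bars the 5′ arm product or its best ungapped match, and the red bar novel_mir_175, which starts 3 nt before the blue bar of its hairpin. The green bar of vvi-MIR166a starts at base 2 of that hairpin and may be out of register.

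On the opposite arm, the 22 nt of the 5′ arm product were compared with the best ungapped match in each known hairpin. The match had 19 of 22 identical bases in vvi-MIR166b, c and e, 18 in d and f, 17 in g, 15 in h and 13 in a. It starts at base 2 of vvi-MIR166a and at base 15 of each other hairpin. The match in vvi-MIR166a may therefore be out of register. In the sequences that follow, capitals mark bases that differ from the 5′ arm product of novel_mir_175. Shown are vvi-MIR166e, tied with b and c for the most identical bases, and vvi-MIR166h and a, which had the fewest.
novel_mir_175: atgttgtctggctcgaggtatc
vvi-MIR166e: atgttgtctggctcgaggACAc
vvi-MIR166h: aCgCtgtctggTtcgagACCAc
vvi-MIR166a: CGgGtgtTtggAATgaggtTtG

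Between the arms, novel_mir_175 has 96 nt with 29.2% G or C, against 52.4% in its mature sequence. Its spacing was near the 95 nt of vvi-MIR166e and the 89 nt of vvi-MIR166c and d, and above the 28 or 29 nt of vvi-MIR166b, f, g and h. For vvi-MIR166a the best match gave 73 nt, which is uncertain because that match may be out of register. In a global alignment, the hairpin was identical to the known ones over 46.7% (vvi-MIR166h) to 62.5% (vvi-MIR166e) of the aligned columns. This share is limited by length, and vvi-MIR166h has only 100 nt, so it does not rank the hairpins by likeness.

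The hairpin was folded with RNAfold at 37°C. It formed a single stem with 59 base pairs, a terminal loop of 6 nt and a minimum free energy of -63.1 kcal/mol. The stem is interrupted by unpaired stretches, among them positions 86 to 95 and 114 to 121. The 8 known MIR166 hairpins ranged from -69.9 kcal/mol (vvi-MIR166e) to -41.1 kcal/mol (vvi-MIR166h). Per nt, novel_mir_175 had -0.392 kcal/mol, inside the range of -0.575 to -0.309 kcal/mol of the known hairpins, and ranked 26 of the 65 predicted hairpins, whose median was -0.316 kcal/mol. Of the 21 nt of the mature strand, 18 were paired, against 16 to 19 at the same place in the known hairpins. The unpaired bases were those at positions 8, 15 and 16, and 3 of the 18 pairs were G:U pairs.

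The fold pairs the mature strand with the listed 5′ arm product over 16 bp. Its first base pairs with hairpin position 32, and the 5′ arm product ends at position 34, which leaves a 3′ overhang of 2 nt on the 5′ arm. At the other end, the mature strand also extends 2 nt past the base opposite the first base of the 5′ arm product. Overhangs of this kind are the usual mark of cutting by a Dicer-like enzyme. They were read from a predicted fold, and cutting was not measured.

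**Figure D2:**
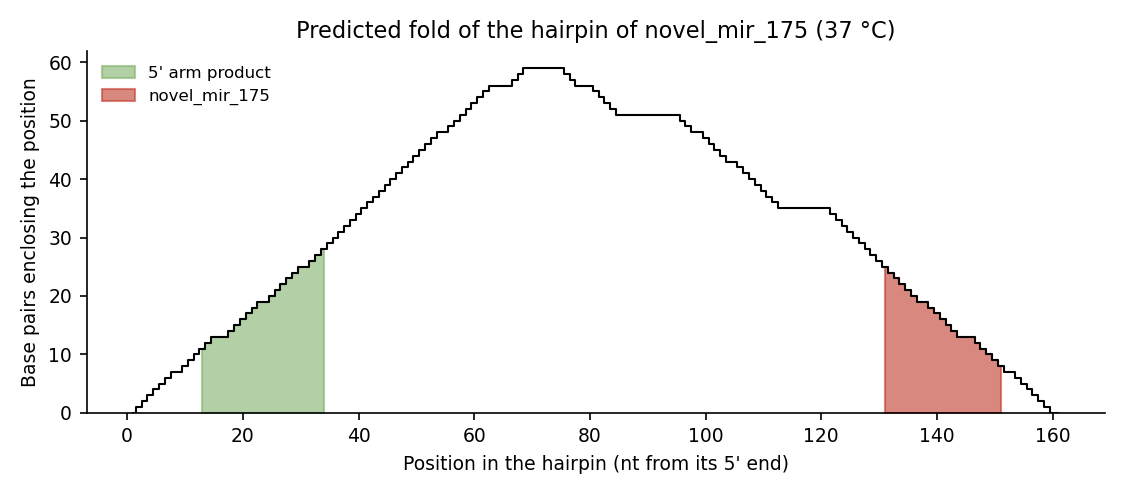
Number of base pairs that enclose each position (y axis) along the 161 nt hairpin of novel_mir_175 (x axis, nt from the 5′ end), as predicted at 37°C. The line climbs to 59 pairs and comes down again with a single top, and the 5′ arm product (green, positions 13 to 34) lies across the stem from novel_mir_175 (red, positions 131 to 151).

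The table lists novel_mir_175 in both libraries, from the 3′ arm each time. The CT text gives precursor number 179 with 1156 reads, and the NCT text gives precursor number 245 with 1910 reads. The numbers run to 240 in CT and to 306 in NCT and are given separately in each library. Of the 80 entries with 1 precursor in each library, 35 were read from the 3′ arm in both, 45 from the 5′ arm in both and 0 from different arms, and novel_mir_175 stands at place 62 in an order that is the same in both libraries. The number differed between the libraries. An entry is 1 sequence, so its sequence is the same in both by definition. The arm and the order were the same in both libraries for all 80 entries, not only for novel_mir_175. The 5′ arm product is no entry of the table, and 0 of the other 298 entries lie in the hairpin on either strand, so the table gives no value for the opposite arm.

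In the CT library, novel_mir_175 had 1156 reads of 25915815 clean reads, which is 44.6 TPM (reads scaled to 1000000 clean reads, 95% Wilson interval 42.1 to 47.3). In the NCT library it had 1910 reads of 21355400 clean reads, or 89.4 TPM (85.5 to 93.5). The intervals did not overlap. Only counting error is in them, and PCR copies of a molecule were counted as separate reads. A single read was worth 0.0386 TPM in CT and 0.0468 TPM in NCT. The table as a whole holds only 0.376% of the CT and 0.435% of the NCT clean reads, and novel_mir_175 made up 1.18% (95% Wilson interval 1.12 to 1.25) of the listed reads in CT and 2.06% (1.97 to 2.15) in NCT.

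novel_mir_175 ranked 11 of the 192 entries listed in CT and 9 of the 210 listed in NCT. It had 82.6 times the median count of the listed entries in CT, where the median was 14 reads, and 127 times in NCT, where it was 15 reads. The 35 entries read from 1 precursor on the 3′ arm in both libraries put it in place 2, after novel_mir_154 (novel_mir_20 in the article) with 11480 CT and 14210 NCT reads, and ahead of novel_mir_200 (article name novel_mir_37) with 773 CT and 969 NCT reads. It is among the 24 of these 35 that are 21 nt long and start with U (written T in the table), the first base most often found in miRNAs loaded into ARGONAUTE1 in *Arabidopsis*.

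Its neighbours in the order of reads were compared with an exact binomial test within each library, adjusted over these 4 comparisons. In CT, novel_mir_57 above it (article name novel_mir_55) had 1294 reads (two-sided exact binomial test, adjusted p = 0.0075), and novel_mir_66 below it (article name novel_mir_57) had 851 reads (adjusted exact p = 2.1e-11). In NCT, novel_mir_182 above it (article name novel_mir_33) had 2611 reads (adjusted exact p = 7.1e-25). novel_mir_57, next below it there with 1844 reads, did not differ from its 1910 reads beyond counting error (adjusted exact p = 0.29). The neighbours were picked by this order, so the tests bear only on the size of each gap against counting error.

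**Figure D3:**
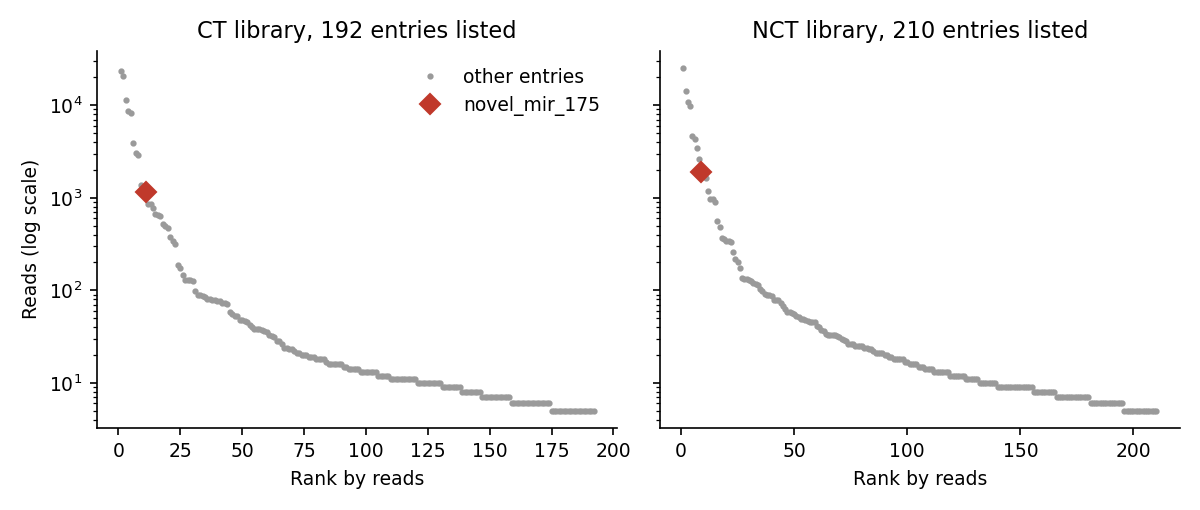
Reads of every listed entry (y axis, log scale) against its rank (x axis) in the CT library (left) and the NCT library (right). The red diamond is novel_mir_175, at rank 11 of 192 with 1156 reads in CT and at rank 9 of 210 with 1910 reads in NCT.

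Between the libraries, novel_mir_175 was lower in CT, with 44.6 TPM against 89.4 TPM in NCT. Its log2 (CT/NCT) was -1.004 ± 0.054 (counting standard error), with a 95% counting interval of -1.11 to -0.90, which is a CT level of 0.499 times the NCT level (0.464 to 0.537). Fisher's exact test (two-sided) of its reads against the remaining clean reads gave p = 1.1e-80, and the Benjamini-Hochberg adjusted p over the 299 entries was 2.4e-79. The lower count is larger than counting error, and its size relative to the spread between plantlets is unknown.

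By the limits of the methods (over 10 TPM in at least 1 library, log2 (CT/NCT) beyond 1 in either direction, p no higher than 0.001), novel_mir_175 was called lower. Of the 28 entries over 10 TPM, 7 were called lower, which is 25.0%. Of the 20 of these listed in both libraries, 3 were called lower (15.0%), and by the log2 limit alone 18 of the 103 entries listed in both were lower (17.5%). novel_mir_175 was the nearest to the limit of the 18 such entries. The limit falls inside its counting interval. At 1158 CT reads it would still be called and at 1159 it would not, so 3 more CT reads would end the call.

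The call also ended when the library totals were changed. The log2 (CT/NCT) was -0.9996 with raw reads as the total, -0.98 with reads mapped to the genome and -0.80 with the reads listed in the table. It was -0.59 both with the median of ratios of the 103 entries listed in both libraries and with edgeR's TMM factors. These 2 scalings rest on the same 103 entries, so their likeness is no independent check. The log2 (CT/NCT) was negative under all 6 scalings, with a Fisher's exact p of 8.2e-29 or lower in each. Only the clean reads put it past -1. In edgeR's exact test, a coefficient of variation between plantlet pools set to 0.2 gave p = 0.0163, and one set to 0.4 gave p = 0.234. Both coefficients are assumptions, since no replicate library allows an estimate.

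**Figure D4:**
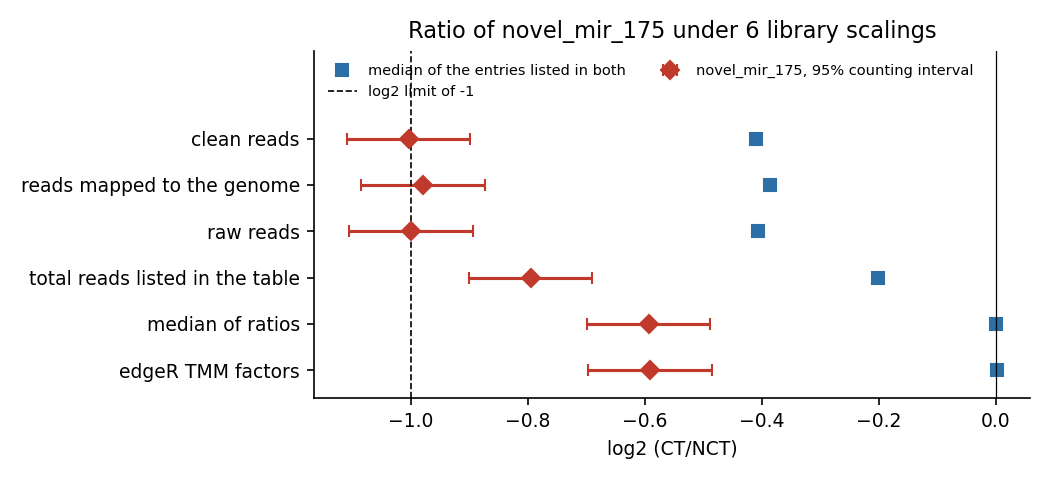
The log2 (CT/NCT) of novel_mir_175 (red diamonds, with 95% counting intervals) and the median over the 103 entries found in both libraries (blue squares) under 6 scalings of the libraries. Only the diamond for clean reads lies past the dashed limit at -1, by less than the width of its interval, and the distance of -0.59 from square to diamond is the same in each row by construction.

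On median, the entries of the table were lower in CT under the clean-read scaling. Over the 103 entries found in CT as well as NCT, the median log2 (CT/NCT) was -0.41 (quartiles -0.75 and -0.05), and novel_mir_175 lay at -0.59 relative to it. A scaling shifts all ratios by the same amount, so this distance cannot change with it. Of the 103 entries, 17 had a lower ratio and 85 a higher one. Among the 20 entries over 10 TPM listed in both libraries, only 2 had a lower ratio than novel_mir_175, and the 20 ran from -1.68 to 1.71 with a median of -0.30. The reason for the shift of the median was not tested.

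**Figure D5:**
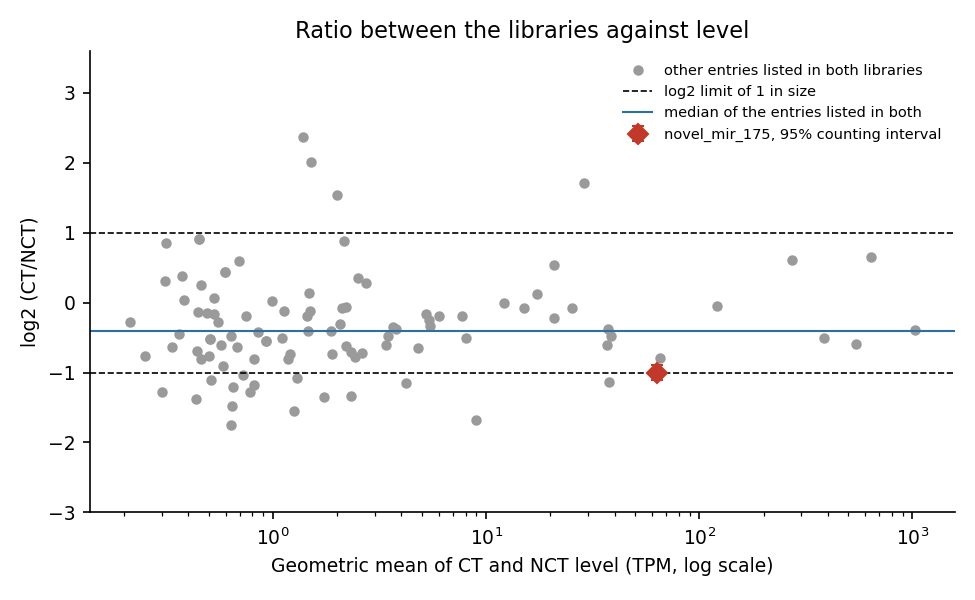
The log2 (CT/NCT) of the 103 entries listed in both libraries (y axis) against the geometric mean of their CT and NCT levels (x axis, TPM on a log scale). novel_mir_175 (red, with its 95% counting interval of -1.11 to -0.90) lies on the lower dashed limit and below the 103 entries' median of -0.41 (blue line).

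The 3 entries over 10 TPM with the ratio closest to that of novel_mir_175 were compared with it over these 2 libraries. novel_mir_136 (article name novel_mir_13) had 661 CT and 1195 NCT reads and a log2 (CT/NCT) of -1.13, which differs from that of novel_mir_175 by -0.13 (95% counting interval -0.30 to 0.04). novel_mir_57 had 1294 CT and 1844 NCT reads and a log2 (CT/NCT) of -0.79, a difference of 0.21 (0.07 to 0.36). novel_mir_200 had 773 CT and 969 NCT reads and a log2 (CT/NCT) of -0.61, a difference of 0.40 (0.23 to 0.57). Only the interval for novel_mir_136 includes 0. The 3 entries were picked for a close ratio, so the intervals bear only on the size of each gap against counting error. A like ratio over a single pair of libraries does not show that the entries act alike.

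A single target is listed for novel_mir_175 among the study's predicted targets. It is the transcript GSVIVT01034812001, annotated with an NB-ARC domain, the nucleotide-binding part of many plant disease resistance proteins. It is no HD-ZIP III transcript by its annotation. No other transcript was scanned here, so whether novel_mir_175 could pair with an HD-ZIP III mRNA was not examined. The article reports predicted targets for the miRNAs it called differentially expressed, and no known miR166 is among these. The 21 nt target fragment is shown under the reverse complement of novel_mir_175, with the differing bases in capitals, because its pairing can be set against that of the known miR166.
reverse complement of novel_mir_175: gaatgaagcctggtccgagaa
target fragment: gaatgaagTAtggtccgagaa

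The fragment differs from full complementarity by C9T and C10A, counted from its 5′ end with the complementary base first. novel_mir_175 formed 19 Watson-Crick pairs with it, 1 G:U pair at miRNA position 13 and 1 mismatch at position 12. Its positions 10 and 11, between which plant miRNAs usually direct cleavage, were both paired. vvi-miR166a, whose first 20 nt lie opposite the same fragment, had the mismatch at its position 11. vvi-miR166c to vvi-miR166h, with 18 nt opposite the fragment, had the G:U pair at position 10 and the mismatch at position 9. The shift of 1 or 3 nt thus moved the same irregular pairs to other places of the miRNA. Pairing was computed from sequence alone, and neither the transcript's level nor its cleavage by novel_mir_175 was measured in these data.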

How the data were processed

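The authors deposited 1 table of raw read counts per mature sequence, without normalization, for 1 CT and 1 NCT library. They trimmed adaptors, kept reads of 18 to 30 nt, mapped them to the PN40024 genome with SOAP2, removed reads that matched other classes of non-coding RNA or known miRNA hairpins, and ran Mireap on the rest to predict miRNAs. The submitters' processing notes also name STAR, without its role. The text columns, deposited as other values, hold the precursor number, arm and reads. Columns were assigned to libraries by name, and replicates did not exist. For log2 ratios, 0.01 TPM stood in for a count of 0. No listed entry had fewer than 5 reads in either library.

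Clean, mapped and raw read totals were taken from the study's read tables, since the deposited table holds only part of each library. Hairpin sequences, positions, the known miRNA sequences (162 rows) and the target fragment came from its supplementary tables (sequences and places only). Reads were compared by Fisher's exact test (two-sided) over all 299 entries, an exact binomial test and 95% Wilson intervals. No quasi-likelihood test was made, since 1 library per condition gives no dispersion. The call script was tested on simulated data. Hairpins were folded with RNAfold (ViennaRNA 2.7.2, 37°C, default Turner parameters). Alignments were ungapped over at least 18 nt, or global with Biopython 1.88. Python 3.11.15, numpy 2.4.6, scipy 1.17.1, pandas 2.3.3, matplotlib 3.10.9, R 4.3.3 and edgeR 4.0.16 were used.

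The entry, the entries named with it and the tests were chosen with earlier results of these data known. Named were novel_mir_175, the known miR166 hairpins, the 3 entries over 10 TPM nearest in ratio, its neighbours by reads, and the entry ahead of and after it among those read from the 3′ arm, which were added after their values were seen. Counts of the known miR166 family were not used here.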

Additional observations from a re-analysis of the deposited data

How the results depend on the processing

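No paired analysis was possible because CT and NCT were sequenced as 1 library each, and for the same reason no library could be left out. The log2 (CT/NCT) of novel_mir_175 stayed negative, with Fisher's exact p at or under 8.2e-29, under all 5 other library totals. Its call as lower ended under each of them, at -0.9996 (raw reads), -0.979 (mapped reads), -0.795 (reads listed in the table), -0.593 (median of ratios) and -0.591 (TMM factors). It also ended with a log2 limit of 1.5, at its value of -1.004, and in edgeR's exact test with an assumed coefficient of variation of 0.2 (p = 0.0163) or 0.4 (p = 0.234). It held with Benjamini-Hochberg adjustment of Fisher's exact p (2.4e-79).

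Over all entries, 7 were called lower and 5 higher in CT (41.7% higher). Without the TPM limit, 69 were lower and 32 higher. These counts include entries with 0 reads in 1 library, whose ratio rests on the 0.01 TPM that stood in for 0. No listed entry had fewer than 5 reads, and what a 0 stands for was not examined. Over 50 TPM, 5 were lower and 3 higher, and among entries listed in both libraries 3 were lower and 1 was higher. With the median of ratios or TMM factors, 5 were lower and 7 higher (58.3% higher). The fold energy of the hairpin was -63.1 kcal/mol at 37°C, -65.2 kcal/mol with the older Turner parameters, -79.42 kcal/mol at 26°C and -112.65 kcal/mol at 4°C. With the older Turner parameters, 17 of the 21 mature nt were paired in place of 18, and the fold had 2 loops.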

Other observations

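Besides novel_mir_175, 3 of the 65 predicted hairpins hold a complete known mature miRNA, and in each of them it belongs to the miR169 family, which targets subunits of the NF-Y transcription factor in *Arabidopsis*. The hairpin of novel_mir_10 holds the sequences of 6 miR169 members, and novel_mir_10 had 313 CT and 259 NCT reads. Its sequence is named novel_mir_1 in the article's supplement, while the article's main text lists these reads under novel_mir_10. The hairpin of novel_mir_14 holds vvi-miR169v, and novel_mir_14 (article name novel_mir_16) had 81 CT and 13 NCT reads. The hairpin of novel_mir_68 holds 2 members, and novel_mir_68 (article name novel_mir_58) was listed with 78 reads in NCT and with 0 in CT. As for novel_mir_175, the table does not give the reads of the known sequences at these hairpins. These entries were named after their values were seen, and no test was made on them.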
